A study of Mus musculus with 4 samples.

Results

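The RNAs described here are 8 long noncoding RNAs taken by symbol, which are Neat1, Malat1, H19, Meg3, Rian, Mirg, Carmn and Dnm3os. They are 8 of the 45777 genes in the series' table and 8 of its 12570 rows typed as long noncoding RNA. They were chosen by their TPM and estimated counts in these same 4 libraries, so those levels are given as a description with no test. Of the 8, 5 had estimated counts and reached 1 TPM, a level scaled for transcript length and library depth, in at least 1 library, and 3 stood at 0 in every library.

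The samples were C2C12 myotubes, the multinucleate muscle cells formed by a mouse myoblast line in low serum, in this case 2% horse serum. Of the 4 libraries, 1 came from myotubes under EPS, read here as electrical pulse stimulation, 1 from a control for EPS, 1 from myotubes given clenbuterol, a beta-adrenergic agonist that acts through cyclic AMP, and 1 from a control for clenbuterol. The treatment field gives 30 ng/ml clenbuterol for all 4 libraries, controls included, so the sample titles set the groups. No source used here gives pulse settings or durations. Within the EPS pair, each record's title goes against the name of its own deposited data. Its libraries are therefore named by title throughout, and any direction between them is reversed if the data names hold instead.

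Long noncoding RNAs work as RNA and many stay in the nucleus. Malat1 gathers in nuclear speckles, bodies rich in splicing factors, and Neat1 is the scaffold around which paraspeckle proteins assemble. H19 is transcribed from the maternal chromosome beside Igf2, is made in fetal and differentiating muscle, and carries the hairpin of miR-675. Meg3, Rian and Mirg are transcribed in a row from the maternal chromosome in the imprinted Dlk1-Dio3 domain and host microRNAs and snoRNAs. Dnm3os, antisense within Dnm3, is the precursor of miR-199a and miR-214, and Carmn, known from cardiac mesoderm and smooth muscle, is the host of miR-143 and miR-145.

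The ends of Malat1 and Neat1 are shown because the libraries were made from poly(A) RNA, and these RNAs end in different ways. Malat1 and the long form of Neat1 are cut at the end by RNase P and keep an A-rich tract written in the genome, whereas the short form of Neat1 ends at a poly(A) signal. Capitals mark the A-rich tract in the first pair of sequences and the signal AATAAA in the last one. The sequences are from GENCODE M21 transcripts on GRCm38, minus strand, at chr19:5795982-5796081 for Malat1, chr19:5824708-5824807 for the long form and chr19:5842307-5842406 for the short form.
Malat1, the 100 bases before the cut: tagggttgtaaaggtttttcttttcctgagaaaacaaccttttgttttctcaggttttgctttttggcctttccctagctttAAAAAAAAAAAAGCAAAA
Neat1 long form, the last 100 bases: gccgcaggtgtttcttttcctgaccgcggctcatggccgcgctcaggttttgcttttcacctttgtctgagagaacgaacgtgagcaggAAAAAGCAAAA
Neat1 short form, the last 100 bases: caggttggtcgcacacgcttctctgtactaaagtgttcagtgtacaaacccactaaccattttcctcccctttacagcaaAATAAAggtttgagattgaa
The A-rich tract runs to the last base in both Malat1, where it spans 18 bases, and the long form of Neat1, where it spans 11. In the annotated Malat1 transcript, 6983 bases long, the next base begins mascRNA, the small tRNA-like RNA that RNase P releases. That annotated transcript runs on past mascRNA, which begins at base 6692, and has an AATAAA in its last 50 bases, not shown here.

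The microRNAs carried by H19 and Dnm3os are shown because these hosts were the most abundant member and the one furthest from its control in the EPS pair. The mature sequences are from RefSeq on GRCm38.p6, with the seed, bases 2 to 8, in capitals.
miR-675-5p, from H19: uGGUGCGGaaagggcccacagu
miR-675-3p, from H19: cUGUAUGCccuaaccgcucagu
miR-199a-5p, from Dnm3os: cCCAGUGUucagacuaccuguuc
miR-199a-3p, from Dnm3os: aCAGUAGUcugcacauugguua
miR-214-5p, from Dnm3os: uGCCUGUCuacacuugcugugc
miR-214-3p, from Dnm3os: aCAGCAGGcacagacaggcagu
The 6 seeds all differ. These libraries hold long poly(A) RNA, so the mature microRNAs themselves were not measured.

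Estimated counts per library totalled 32640884 to 35597074. All 10 myotube markers listed for a check of the label, such as Ckm, Acta1, Ttn and Myog, exceeded 1 TPM in every library. Their summed level was 11753 TPM in the library titled EPS, 16156 in the library titled EPS control, 18307 with clenbuterol and 17711 in its control. In the library titled EPS all 10 were below the titled EPS control, with a median log2 ratio of -0.45, and Actn2 was the one past 2-fold (-1.26). In bulk RNA, fewer cells of a type and less RNA per cell cannot be told apart. Summed levels of 5 immune, 5 endothelial, 4 adipocyte and 4 neural markers stayed at or under 5.11 TPM per list. Of the immune markers, Ptprc, Adgre1 and Cd3e were at 0 counts in all 4 libraries. Cd68 made up most of the immune sum, at 2.79 to 4.88 TPM, and Itgam had 0 to 16 counts.

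The levels of the 8 RNAs spanned the whole range from the most abundant long noncoding RNA of these cells to no signal. By mean TPM among all rows typed as long noncoding RNA, H19 ranked 1, Malat1 2, Neat1 3, Dnm3os 88 and Carmn 217. H19 was above Malat1 and Malat1 above Neat1 in each library. Dnm3os was above Carmn in each library, and both lay far below the first 3.

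Among the 5 measured RNAs, differences of 2-fold or more were few. With clenbuterol 0 were higher and 1, Carmn, was lower, where 1% of 13788 genes were higher and 0.515% lower. In the library titled EPS 0 were higher and 0 lower, where 0.868% of 13828 genes were higher and 1.14% lower. Between the titled EPS control and the clenbuterol control 0 were higher and 1, Neat1, was lower, where 1.85% of 13880 genes were higher, 1.3% lower and 3.15% either. With 5 RNAs these counts cannot be read against such shares, and the values below describe each RNA.

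**Figure D1:**
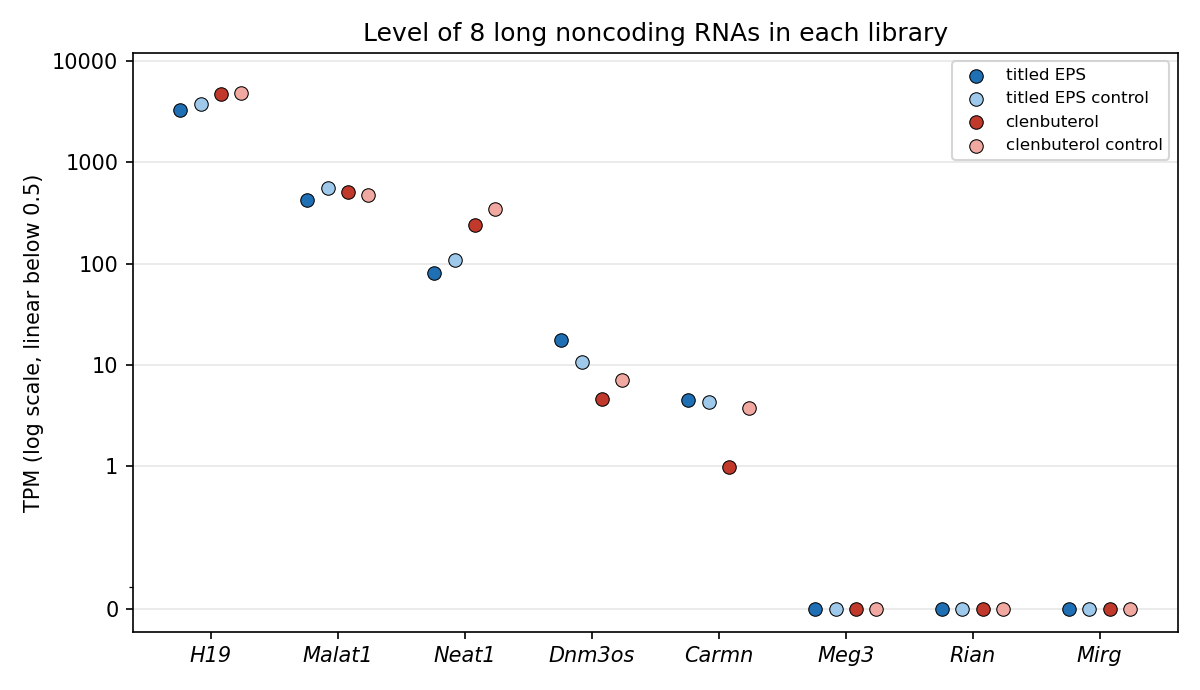
TPM of the 8 long noncoding RNAs on a log axis that is linear below 0.5, with 1 point per library and no replicates. H19 lies between 3315 and 4789 TPM, Neat1 is lower in both EPS libraries than in both clenbuterol libraries, and Meg3, Rian and Mirg lie at 0.

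On the log2(TPM + 1) scale Neat1 had the widest range over the 4 libraries, 2.09, before Dnm3os (1.71) and Carmn (1.48). That order depends on the added 1, which narrows the range of a gene as low as Carmn, at 0.988 to 4.54 TPM. In CPM, which takes no account of transcript length and was used here with no pseudocount, the order was reversed. The highest library was 3.40-fold above the lowest for Neat1, 3.69-fold for Dnm3os and 4.37-fold for Carmn. Neat1 lies on mm10 chromosome 19 at 5824708 to 5845480 on the minus strand. Its level was 80.7 TPM in the library titled EPS, 109.6 in the library titled EPS control, 242 with clenbuterol and 347 in the clenbuterol control, from 5515, 7236, 13002 and 17377 estimated counts. Both EPS libraries were thus below both clenbuterol libraries. The nearest values, 109.6 and 242 TPM, differed by 1.14 on the log2(TPM + 1) scale. On that scale, 0.204% of 14213 genes with at least 1 TPM in some library had a gap of 2-fold or more in that direction. In CPM the titled EPS control stood at 0.555 of the clenbuterol library (counting interval 0.540 to 0.572), a gap short of 2-fold. The share of genes with such a gap was not taken in CPM.

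Within each treatment pair Neat1 differed less. With clenbuterol its log2 ratio of TPM plus 1 to the control was -0.52. In CPM, counts scaled to library sizes adjusted by TMM, it was 1.30-fold lower (95% counting interval 1.27 to 1.33). In the library titled EPS the log2 ratio to the titled EPS control was -0.44, and the CPM was 1.45-fold lower (1.40 to 1.51). These intervals cover counting error only, since 1 library per group gives no spread between cultures. The summed myotube markers were also lower in both EPS libraries, with 8 of 10 lower in the titled EPS control than in the clenbuterol control, and their part in the levels of Neat1 was not tested. The 2 controls were further apart than either treatment from its control: Neat1 was 2.34-fold lower in CPM in the titled EPS control than in the clenbuterol control (2.27 to 2.40). No source used here says whether the pairs were cultured or sequenced together, so a difference between pairs and one between culture rounds cannot be told apart.

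**Figure D2:**
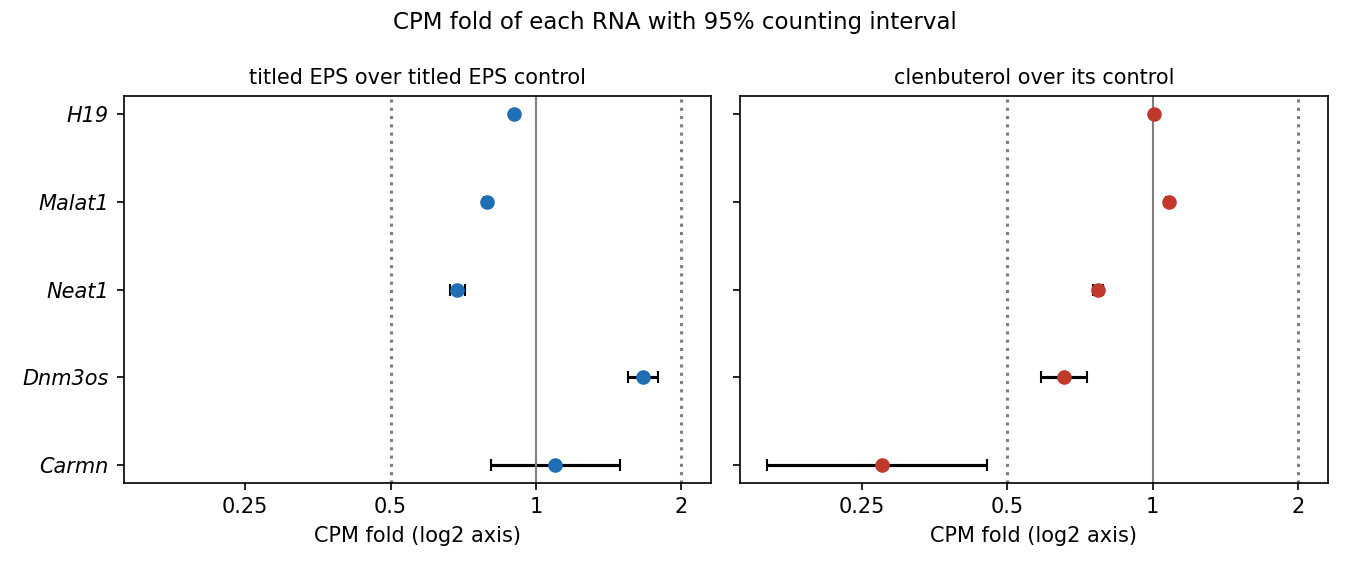
CPM fold of the 5 detected RNAs, titled EPS over titled EPS control on the left and clenbuterol over its control on the right, on log2 axes. Points are folds, bars are exact 95% counting intervals and dotted lines mark 2-fold; Carmn with clenbuterol, at 0.274, is the one point beyond a dotted line.

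The Neat1 gene makes a short and a long form, and a split can be computed from the deposited values if these are its only forms. Their annotated starts lie close together. The long form, 20771 bases in GENCODE M21, is the one that builds paraspeckles, and the short form, 3004 bases, covers only its first part. The table gives mean read depth over the whole gene as well as FPKM, and the ratio of FPKM to depth was the same within 0.1% in all 2783 to 2864 genes per library that have 1 listed transcript and a depth of at least 10. For 1 transcript, FPKM is depth on a library scale, so this ratio sets the scale. It does not check the split for a gene with more than 1 form. From these values the mean transcript length implied for Neat1 was 4379 bases in the library titled EPS, 4806 in the library titled EPS control, 3743 with clenbuterol and 3439 in its control. The EPS libraries therefore had the longer mean, and the clenbuterol control had the shortest.

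Solved for the annotated pair of forms, the short form accounted for most of the difference in Neat1. Its implied level was 74.4 TPM in the library titled EPS, 98.5 in the library titled EPS control, 232 with clenbuterol and 339 in its control, a 4.55-fold span. The long form stood at 6.24 TPM in the library titled EPS, 11.1 in the library titled EPS control, 10.1 with clenbuterol and 8.51 in its control, a 1.78-fold span. In the EPS pair the long form was thus 7.74% of implied Neat1 TPM under the EPS title and 10.1% under the control title. It was 4.16% with clenbuterol and 2.45% in the clenbuterol control. Such shares refer to captured poly(A) RNA, and the long form ends in an A-rich tract where the short form has a poly(A) signal. Capture of each form was not measured, so shares of Neat1 molecules in the cells are not known. With clenbuterol the implied short form was 1.46-fold lower than in its control, while the long form was 1.18-fold higher. These are values implied by the authors' estimates and not counts of reads on either form, and they carry no interval. If the short form is taken as unspliced, at 3170 bases, the long form is 5.54 and 10.2 TPM in the titled EPS library and its titled control and 7.89 and 5.32 TPM with clenbuterol and in its control. The order of the 4 long-form shares is then unchanged, while the library titled EPS passes the clenbuterol control in long-form TPM.

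**Figure D3:**
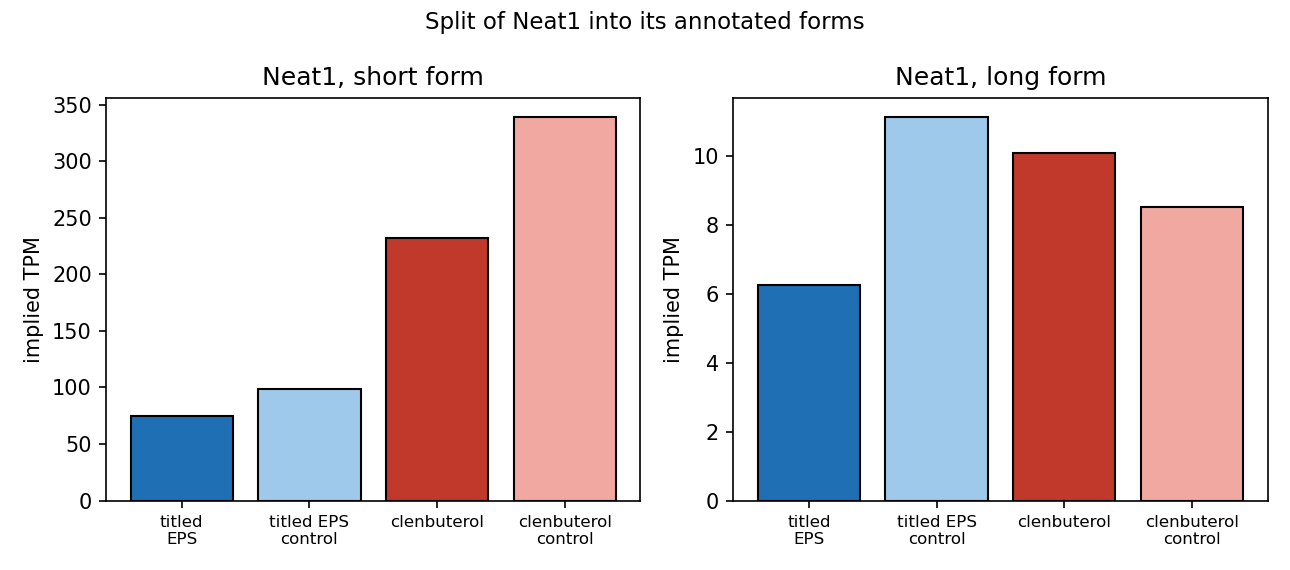
Implied TPM of the short (left) and long (right) forms of Neat1 in the 4 libraries, on separate linear axes that start at 0, with no error bars because there is 1 library per group. The short form is lower in both EPS libraries than in both clenbuterol libraries, and the long form stays between 6.24 and 11.1 TPM.

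Genes of the proteins that assemble with Neat1 stayed under 2-fold in RNA, and protein was not measured. Of 18 such paraspeckle genes, all measured, 0 were at least 2-fold higher or lower with clenbuterol, where 1.52% of 13788 genes were. In the library titled EPS against its control 0 were, where 2.01% of 13828 genes were past 2-fold. Their median log2 ratios were -0.0017 and 0.04, beside -0.01 and -0.02 over all genes. At such shares a list of 18 can hold 0 without standing apart. Between the titled EPS control and the clenbuterol control 17 of 18 were above 0, with a median of 0.21 against 0.04 over all genes. This was not particular to them, since 8 of 10 listed microRNA processing genes were above 0, also with a median of 0.21. Imprinted genes went the other way, with 5 of 13 above 0 and a median of -0.13. The share of all genes above 0 was not taken. The highest paraspeckle gene in that comparison was Taf15 (log2 0.48). Sfpq, the gene of an essential paraspeckle protein, stood at 65.6 and 61.9 TPM in the titled EPS library and its titled control. It stood at 51.5 and 53.1 TPM with clenbuterol and in its control. Nono, the gene of its partner, stood at 284 and 272 TPM and at 253 and 256 TPM in the same order. Among list members of at least 5 TPM the lowest were Cpsf6 with clenbuterol (log2 -0.14) and Hnrnph3 in the library titled EPS (-0.26), and the highest were Rbmx (0.21) and Nudt21 (0.23).

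By likeness of profile, measured as the distance between log2(TPM + 1) profiles centred on their own mean over the 4 libraries, Arc was the gene most like Neat1 among 10477 named genes with at least 5 TPM somewhere. Arc, an immediate early gene, was at 1.16 and 1.80 TPM in the titled EPS library and its titled control and at 5.51 and 7.67 TPM with clenbuterol and in its control. Scel and the zinc exporter gene Slc30a1 came next, at distances of 0.17 and 0.33 against 0.09 for Arc. The added 1 narrows the spread of genes as low as Arc and Scel more than that of Neat1, so the likeness is not one of equal folds. Profiles over 4 libraries are also short, so this is a description.

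Malat1 lies 22036 bases from Neat1 on the same strand, on chromosome 19 at 5795690 to 5802672. Its level was 427 TPM in the library titled EPS, 554 in the library titled EPS control, 511 with clenbuterol and 480 in its control. The EPS values lay on either side of the clenbuterol values, so Malat1 did not share the split of Neat1. Its CPM was 1.08-fold higher with clenbuterol (1.07 to 1.09) and 1.26-fold lower in the library titled EPS (1.25 to 1.28). Malat1 took 0.131% of all estimated counts in the library titled EPS, 0.163% in the library titled EPS control, 0.154% with clenbuterol and 0.146% in its control.

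The gene beyond Neat1 moved little. Frmd8, 5494 bases beyond Neat1, was at 24.3 and 29.9 TPM in the titled EPS library and its titled control, and at 23.0 and 27.5 TPM with clenbuterol and in its control. It did not have the spread of Neat1. The mascRNA row was listed at 1 count and under 0.001 TPM in each library.

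Nuclear speckle and splicing genes were also under 2-fold. Of 20, 0 reached it in either treatment comparison, beside the 1.52% and 2.01% of all genes given above, and their median log2 ratios were -0.03 with clenbuterol and -0.02 in the library titled EPS. The furthest from its control was Clk1, a kinase of SR splicing factors, at 46.4 TPM in the library titled EPS against 76.6 in its titled control (log2 -0.71). Between the controls 13 of 20 were above 0, with a median of 0.12 against 0.04 over all genes, and Clk1 was the highest (0.58). Of the RNase P and tRNA end-processing genes, 0 of 10 measured reached 2-fold with clenbuterol and 0 of 11 in the library titled EPS. Rpp38, an RNase P subunit, was the lowest of them with clenbuterol, at 9.85 TPM against 15.3 in the control, while Pop4 was the highest in the library titled EPS, at 21.6 TPM against 15.1 in the library titled EPS control.

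H19 was the most abundant member. It lies on chromosome 7 at 142575530 to 142578146 on the minus strand. It reached 3315 TPM in the library titled EPS, 3769 in the library titled EPS control, 4755 with clenbuterol and 4789 in its control, from 118360 to 159325 estimated counts. Between clenbuterol and its control the CPM fold was 1.01, with an interval that included 1 (0.9997 to 1.01), and its sign depended on the scaling. In the library titled EPS its CPM was 1.11-fold lower (1.10 to 1.12). Both EPS libraries were below both clenbuterol libraries, as were those of 25.1% of the 14213 genes.

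The protein-coding partner of H19 had the same order between pairs. Igf2, the insulin-like growth factor gene that shares its enhancers with H19 and is expressed from the paternal chromosome, lies 72622 bases away. It was at 18.7 and 20.4 TPM in the titled EPS library and its titled control, and at 41.98 and 41.3 TPM with clenbuterol and in its control. The CPM of Igf2 was 2.09-fold lower in the titled EPS control than in the clenbuterol control (1.94 to 2.25), against 1.31-fold lower for H19 (1.30 to 1.32). Within the treatment pairs the log2 ratios of Igf2 were 0.02 with clenbuterol and -0.12 in the library titled EPS. The summed myotube markers lay in the same order between pairs, while Acta1 and Actn2 were higher in the titled EPS control than in both clenbuterol libraries. The part of these markers in the levels of H19 and Igf2 was not tested.

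Nctc1, a long noncoding RNA beside H19 that overlaps its muscle enhancers, had 24 and 54 counts in the titled EPS library and its titled control and 55 and 60 counts with clenbuterol and in its control. The row of Mir675, the hairpin inside H19, held 4 and 5 counts in the titled EPS library and its titled control and 6 counts in both clenbuterol libraries. Those counts are too few to set against the host.

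Of 27 listed imprinted genes, Igf2 included, 13 were measured. Beside 1.52% of all genes with clenbuterol and 2.01% in the EPS pair, 0 of the 13 reached 2-fold in either treatment comparison. Airn, the antisense RNA of Igf2r, was the lowest in both, at 3.73 TPM in the library titled EPS against 5.65 in the library titled EPS control and at 4.63 TPM with clenbuterol against 8.06 in its control. Airn rested on 52 to 90 counts.

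Meg3, Rian and Mirg were not detected. Each had 0 counts in all 4 libraries, which allows up to 3 counts, or 0.0830 to 0.0922 CPM, per library. They lie on chromosome 12, Meg3 at 109540996 to 109571729, Rian at 109603945 to 109661716 and Mirg at 109734981 to 109749458. From the start of Meg3 to the end of Mirg the table lists 86 rows on both strands, of which 58 are microRNAs and 19 snoRNAs, and 0 of the 86 had a count in any library. For comparison, 23.5% to 25.03% of all 979 microRNA rows and 18.97% to 20.02% of all long noncoding RNA rows had counts in a library. Far fewer reached 1 TPM in a library, 62 to 82 of the 979 microRNA rows and 524 to 583 of the 12570 long noncoding RNA rows. Meg3 and Rian span 30734 and 57772 bases.

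Dlk1 and Rtl1, the paternally expressed protein genes of the domain, and Dio3 and Dio3os at its far end also had 0 counts in every library. The nearest gene of at least 1 TPM before Meg3 was Wdr25, 512542 bases away, and the nearest after Mirg was Gm3379, 144932 bases away. Wdr25 was at 6.77 and 5.88 TPM in the titled EPS library and its titled control and at 7.50 and 5.64 TPM with clenbuterol and in its control. No difference between conditions could be described for these 3 RNAs.

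Dnm3os, like Malat1, had ratios of opposite sign in the 2 treatment comparisons. It lies on chromosome 1 at 162217623 to 162225550 on the plus strand. Its level was 17.5 TPM in the library titled EPS, 10.7 in the library titled EPS control, 4.63 with clenbuterol and 7.17 in its control, from 2161, 1170, 527 and 827 counts. No 2 libraries had equal levels within counting error, and both EPS libraries were above both clenbuterol libraries, as were those of 34.7% of 14213 genes. With clenbuterol the CPM of Dnm3os was 1.52-fold lower than in its control (1.37 to 1.70). In the library titled EPS it was 1.67-fold higher than in the library titled EPS control (1.55 to 1.79). Under the data names it was lower with both treatments. Neither ratio reached 2-fold, and the gap between the pairs was 0.52 on the log2 scale, under the 2-fold gap that 0.352% of genes had in that direction.

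Dnm3, the dynamin gene that holds Dnm3os on its opposite strand, stayed level. It was at 6.25 and 5.59 TPM in the titled EPS library and its titled control and at 5.54 and 5.14 TPM with clenbuterol and in its control. The libraries were strand-specific, per the labels, but no source used here says whether the counting used strand. Without it, reads from a gene and its antisense partner cannot be told apart. The rows of Mir199a-2 and Mir214 inside Dnm3os were listed at 3 estimated counts each in every library, yet at under 0.01 TPM. Mir675, by contrast, had 4 counts at 7.91 TPM in the library titled EPS. The 3 counts thus do not match their TPM and are not set against the host.

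The summed level of markers listed for smooth muscle and pericytes had the same order across libraries as Dnm3os and Carmn, but not every marker did. Of 8, 5 exceeded 1 TPM, and the sum was 3621 TPM in the library titled EPS, 3008 in the library titled EPS control, 2173 with clenbuterol and 2332 in its control. Most of it was Acta2 and Tagln, which differentiating muscle cells also express. Cnn1, calponin, was at 20.8 and 12.9 TPM in the titled EPS library and its titled control and at 4.94 and 5.57 TPM with clenbuterol and in its control. Mcam, a pericyte and endothelial adhesion molecule, was at 4.13 and 3.10 TPM in the titled EPS library and its titled control and at 5.80 and 2.92 TPM with clenbuterol and in its control, so it was highest where Dnm3os and Carmn were lowest. Notch3 was at 34.8 TPM with clenbuterol against 30.5 in its control. Kcnj8, a pericyte marker, was at 0 counts in all 4 and Rgs5 in 3, and Myh11, a smooth muscle myosin, was at 0 in the clenbuterol control. The part of these markers in the levels of Dnm3os and Carmn was not tested. The sum of 5 fibroblast markers, of which Thy1 was at 0 in all 4 libraries, was 1433 and 1393 TPM in the titled EPS library and its titled control and 856 and 790 TPM with clenbuterol and in its control. Most of that gap was Col1a1, a collagen gene, at 1198 and 1164 TPM in the titled EPS library and its titled control and 642 and 573 TPM with clenbuterol and in its control. Dcn was between 209.9 and 231 TPM and Pdgfra between 3.46 and 4.33 TPM over the 4 libraries.

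By the measure used for Neat1, genes like Dnm3os included Edn1, which encodes the vasoconstrictor endothelin-1 and was the nearest, and the microRNA row Mir3060. Edn1 was at 23.8 and 15.7 TPM in the titled EPS library and its titled control and at 5.33 and 9.43 TPM with clenbuterol and in its control. Its distance from Dnm3os was 0.25, against 0.27 for Mir3060. Of the transcription factors known to act upstream, Twist2 was at 5.83 and 6.78 TPM in the titled EPS library and its titled control and at 3.36 and 2.88 TPM with clenbuterol and in its control. Twist1, which drives Dnm3os in mouse development, was at 0 counts in 3 libraries and 2 counts in the library titled EPS control.

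Carmn was the one member past 2-fold in a treatment comparison, by TPM plus 1. It lies on chromosome 18 at 61645878 to 61665538 on the minus strand. It was at 4.54 TPM in the library titled EPS, 4.29 in the library titled EPS control, 0.988 with clenbuterol and 3.77 in its control, from 97, 80, 20 and 75 counts. The clenbuterol library was apart, and the other 3 did not differ from each other beyond counting error. With clenbuterol the log2 ratio of TPM plus 1 was -1.26 and the CPM was 3.64-fold lower (2.20 to 6.30). The log2 ratio was -0.85 in FPKM and -0.55 with a pseudocount of 5, both short of 2-fold, and Carmn does not reach a minimum of 5 TPM. That level rested on few reads, with an exact Poisson interval of 12.2 to 30.9 counts in the clenbuterol library and 59.0 to 94.0 in its control.

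The rows of the microRNA hairpins inside Carmn were low in the same library. Mir143 had 4 and 5 counts in the titled EPS library and its titled control, and 0 with clenbuterol against 3 in its control. Mir145a had 8 and 7 counts in the titled EPS library and its titled control, and 0 with clenbuterol against 3 in its control. Counts of this size do not separate the libraries by themselves. Bvht, a cardiac long noncoding RNA that overlaps the end of Carmn on the opposite strand, was at 5.36 and 6.95 TPM in the titled EPS library and its titled control and at 8.90 and 9.07 TPM with clenbuterol and in its control, so it did not have the low value of Carmn.

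The expressed gene beyond the start of Carmn was also lower with clenbuterol, while the nearer one beyond its end was not. Pcyox1l, 30626 bases away on the same strand, was at 8.20 and 12.3 TPM in the titled EPS library and its titled control, and at 5.24 TPM with clenbuterol against 8.98 in its control. Its log2 ratios were -0.68 with clenbuterol and -0.53 in the library titled EPS. Gm35607, 3737 bases beyond the end of Carmn on the same strand, was at 1.10 TPM with clenbuterol against 0.885 in its control (log2 0.16). That gene rested on 34 and 25 counts. Srf, the serum response factor that acts on the miR-143 and miR-145 locus in smooth muscle, was the lowest known regulator with clenbuterol at 34.7 TPM, against 47.3 in its control (log2 -0.44). Myocd, its cofactor there, had 3 counts with clenbuterol and 0 in the other libraries.

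**Figure D4:**
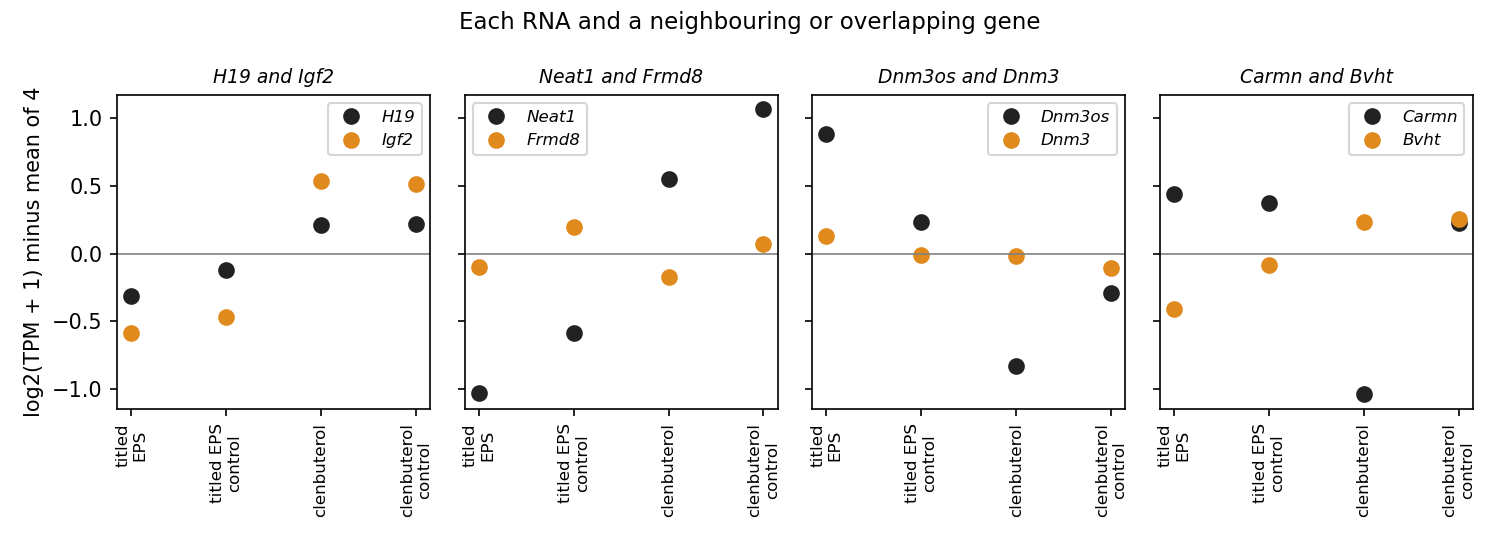
log2(TPM + 1) of H19, Neat1, Dnm3os and Carmn (black) and of 1 neighbouring or overlapping gene (orange) in the 4 libraries, each centred on its mean over the 4. Igf2 has the order of H19 between pairs, while Dnm3, Bvht and Frmd8 lack the spread of Dnm3os, Carmn and Neat1.

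Of the 17 measured regulators known for these RNAs, 0 reached 2-fold in either treatment comparison. Over all genes 1.52% did with clenbuterol and 2.01% in the EPS pair, and at such shares short lists can hold 0. The median log2 ratios of the regulators were 0.04 with clenbuterol and -0.11 in the library titled EPS. Between the controls 1 regulator was 2-fold higher, Twist2 (log2 1.01), where 1.85% of 13880 genes were higher. The lowest in the library titled EPS was Igf2bp2, an RNA-binding protein that H19 can bind, at 11.8 TPM against 19.7 in the library titled EPS control. The 10 genes of microRNA processing, Drosha and Dicer1 among them, also had 0 past 2-fold, with medians of 0.04 and -0.11. Ago2, the slicing Argonaute, was their lowest in the library titled EPS, at 45.7 TPM against 63.5 in the library titled EPS control.

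With clenbuterol, where 1.52% of 13788 genes were past 2-fold, 0 of 19 other long noncoding RNAs measured were. In the EPS pair, where 2.01% of 13828 genes were past 2-fold, 1 of 18 measured was. That gene was Mir155hg, the host of miR-155, with 84 counts in the library titled EPS against 0 in its titled control, at least 20.1-fold higher by the lower limit of its counting interval. It had 32 counts with clenbuterol and 40 in its control, so the titled EPS control stood apart from the other 3 libraries. Xist, the RNA that coats the inactive X chromosome, was at 161 and 163 TPM in the titled EPS library and its titled control and at 133 and 139 TPM with clenbuterol and in its control. Among those of at least 5 TPM, Tug1 had the lowest ratio with clenbuterol (log2 -0.31) and Pvt1 the highest (0.33), and Pvt1 was the lowest in the library titled EPS (-0.67). Below 5 TPM, Mir17hg was at 1.77 TPM with clenbuterol against 3.02 in its control, from 60 and 103 counts.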

How the data were processed

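Polyadenylated RNA from 4 C2C12 myotube cultures, 1 per group, was sequenced by the authors. Reads were aligned with HISAT2 to mm10, per the submitters' processing notes. The authors deposited 1 joint table with estimated counts, FPKM and TPM per gene, and 1 table per library with coverage (mean read depth, a signal), FPKM and TPM. No source used here gives the program behind these values, its annotation or its use of strand. Per library, 1 to 3 genes, 0 of them members, had joint and single TPM further apart than 0.001. Spreadsheet dates in 26 symbols were restored from RefSeq GRCm38.p6.

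From these files, log2 ratios of TPM were computed with a pseudocount of 1 over genes with at least 1 TPM in a library of the pair. The pseudocount understates the change of low genes. Folds of CPM used TMM library sizes (edgeR 4.0.16, R 4.3.3) with exact Clopper-Pearson 95% intervals, which cover counting error only. With 1 library per group there was no test. Scripts (Python 3.11.15, numpy 2.4.6, pandas 2.3.3, scipy 1.17.1, matplotlib 3.10.9) were tested on simulated counts. DESeq2 1.42.0 gave size factors for an alternative.

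Members and lists were chosen with earlier results of these data known. Of 190 list entries 185 were found. The rule for named genes took all members, the highest and lowest gene of each list with at least 5 TPM, every list gene past 2-fold, the neighbours of members, and the 3 most similar profiles for each of the 2 members with the largest range. Not every gene that this rule names is reported here. Other named genes of the lists, and values of the single microRNA rows, were picked after their values were seen. The split of Neat1 into 2 forms and its alternative length were also added after the data were seen.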

Additional observations from a re-analysis of the deposited data

Results flagged for a closer look

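Malat1 and Dnm3os had ratios of opposite sign in the clenbuterol and EPS comparisons, each with a counting interval that left out 1. The difference between the comparisons was not tested, since each rests on 1 library per group. For Malat1 the log2 CPM fold was 0.11 with clenbuterol and -0.34 in the library titled EPS, a difference of 0.45. For Dnm3os it was -0.61 with clenbuterol and 0.74 in the library titled EPS, a difference of -1.35. Under the data names both EPS signs are reversed, and these RNAs then differ the same way in both comparisons.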

How the results depend on the processing

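No paired analysis was possible because each group has 1 library and no replicate numbers. Of 117 alternative values of member log2 ratios, 83 stayed within what the counting interval allows and 34 moved by more. The 117 include settings with no filter and with a minimum of 5 TPM, which cannot change a ratio. Only differences of 2-fold or more could count as turned in sign, which were Carmn with clenbuterol and Neat1 between the controls, and 0 did. Of 48 list medians, 45 moved by under 0.1. H19 with clenbuterol was above 0 in 2 of 9 settings. Carmn was no longer counted as 2-fold lower with clenbuterol (0 members) at a pseudocount of 5, in FPKM and at a minimum of 5 TPM, which it does not reach. In CPM the range of log2 values was 1.76 for Neat1, 0.338 for Malat1 and 0.548 for H19, against 2.09, 0.374 and 0.531 in TPM.

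Counts over all genes moved with the setting. With clenbuterol, genes higher and lower were 138 and 71, against 256 and 194 at a pseudocount of 0.1, 41 and 2 at 5, 54 and 10 in FPKM, 61 and 13 in CPM with TMM or DESeq2 factors, 56 and 13 with library totals, and 64 and 12 at a minimum of 5 TPM. In the EPS pair they were 120 and 158, against 220 and 351, 9 and 36, 38 and 59, 38 and 75, 40 and 71, and 43 and 69 in the same order. Between the titled EPS control and the clenbuterol control they were 257 and 180, against 485 and 381, 73 and 36, 96 and 82, 165 and 112 with TMM, 165 and 111 with DESeq2 factors, 162 and 114, and 157 and 105. The cause was not tested. Counts under 100, as for Carmn, limit the precision of its ratio, and depth sets the limit for Meg3, Rian and Mirg.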
